A study of Mus musculus with 91 samples.

Results

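The nuclear genes for the respiratory chain and ATP synthase were described in single myeloid progenitor cells of the mouse. The 94 genes were taken by symbol from a table of 23956 genes: every symbol starting with Nduf, Uqcr or Atp5, the 4 Sdh genes (Sdha, Sdhb, Sdhc and Sdhd), every symbol starting with Cox followed by a digit from 4 to 8, and Cyc1 and Cycs. By textbook role they comprised 36 subunits of complex I, 4 of complex II, 9 of complex III, 19 of complex IV, 15 of complex V and the carrier cytochrome c (Cycs). A further 10 matched the symbol rule without being subunits and are described as associated genes. No gene encoded in mitochondrial DNA had a row in the table, so the complexes were seen through their nuclear subunits alone.

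The table held 91 cells, 46 labelled GMP (granulocyte-monocyte progenitors) and 45 labelled CD11b+ GMP-P. All cells came from bone marrow of C57BL/6 mice of genotype Gfi1-R412X/- Irf8+/-: a Gfi1 R412X allele over a minus (null) allele, with a single functional Irf8 allele. Gfi1 and Irf8 are transcription factors that act in granulocyte and monocyte development. Both populations carried these alleles, no cells without them were in the table, and the mice's age was not labelled. The common gate was Lineage- CD117+ Sca-1- CD34+ with high CD16/32, and CD11b, an integrin chain of maturing myeloid cells, set the second population apart. Capture and lysis were done on a Fluidigm C1 chip. No animal is named in the labels, and each population was therefore counted as 1 sample. No test was made, and the SD given is over cells. The cell names carry a separate identifier for each population, and the labels do not say what it marks. All names share a prefix, and the cell numbers continue from GMP to CD11b+ GMP-P. If the identifier marks a batch, the population and that batch cannot be told apart.

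Levels are log2(TPM + 1), where TPM is the abundance of a transcript scaled by gene length and sums to the same total in every cell. A difference is the mean over CD11b+ GMP-P cells minus the mean over GMP cells on that scale, and a gene is called lower or higher where the difference is 1 or more in size. A gene counts as measured if either population had values above 0 in 10% or more of its cells. Markers of the gate matched the labels in part. The gene for CD11b, Itgam, was above 0 in 13 GMP and 34 CD11b+ GMP-P cells, and its mean level was 0.54 and 3.68. Ly6a, the gene for Sca-1, was above 0 in 43 and 44 cells even though the gate was Sca-1-. Kit, the gene for CD117, had a mean of 3.65 in GMP against 0.90 in CD11b+ GMP-P, and Cd34 7.22 against 2.55, with at least 10 TPM in 41 of 46 and 14 of 45 cells. Of 6 lymphoid markers, 5 were at 0 in every GMP cell and 6 in every CD11b+ GMP-P cell. The summed TPM of 6 basophil, mast cell and eosinophil markers had a median of 3.155 in GMP and 0 in CD11b+ GMP-P but reached 21499 and 130873 in single cells. That of 6 monocyte and dendritic cell markers had medians of 7842 and 3527, and Ly6c2 had by far the highest mean level of the 6, 11.60 and 11.52. The means were 5.32 and 1.48 for F13a1, 3.59 and 0.66 for Ccr2 and 2.05 and 1.23 for Csf1r. Flt3 and Siglech were at 0.37 or below. The part of these markers in the results was not tested. The number of genes above 0 per cell was 5294 ± 801 (SD, 46 GMP cells) and 4112 ± 953 (SD, 45 CD11b+ GMP-P cells), and read depth per cell is unknown.

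As background, complexes I and II pass electrons from NADH and succinate to ubiquinone, complex III passes them to cytochrome c, and complex IV passes them to oxygen. Complexes I, III and IV pump protons across the inner mitochondrial membrane, and complex V, the ATP synthase, makes ATP from their return. Neutrophils are known for relying largely on glycolysis once mature, while their bone marrow precursors hold more mitochondria.

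Transcripts of the respiratory chain and ATP synthase were on average lower in CD11b+ GMP-P than in GMP cells. Of 87 measured genes, 86 had the lower mean in CD11b+ GMP-P, and 62 were lower by 1 or more against 0 higher. The single exception in direction was the assembly factor Ndufaf6, with means of 0.70 and 0.71. Among all 10030 measured genes 8006 had the lower mean in CD11b+ GMP-P, 29.9% were lower by 1 or more and 2.45% higher. The median difference was -1.61 for the 87 genes and -0.50 for all. The background share was larger among well detected and abundant genes, however. Restricted to 5133 genes with values above 0 in 50% or more of the cells of a population, 51.8% were lower and 3.7% higher, against 61 and 0 of 82 respiratory genes. Among 969 genes with a mean level of at least 5, 67.6% were lower and 4.75% higher, against 50 and 0 of 69 respiratory genes. The median was -1.50 over all of these genes and -1.62 over the respiratory genes. Direction alone was shared widely too. The mean was lower in CD11b+ GMP-P for 4430 of the 5133 and 857 of the 969 genes, against 82 of 82 and 69 of 69 respiratory genes. The shift of the set as a whole was thus close to that of other abundant genes, and the differences between complexes and between subunits are described against it. Whether fewer transcripts per cell or a larger share taken by other transcripts lay behind the lower TPM cannot be told apart.

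Detection and spread differed between the populations as well. In GMP, 27 of the respiratory genes were above 0 in every cell, and in CD11b+ GMP-P 6 were, with 5 shared by both. Among all genes, 215 were above 0 in every cell of both populations. Detection was lower over all genes too, with a mean of 5294 genes above 0 per GMP cell and 4112 per CD11b+ GMP-P cell. The SD over cells was larger in CD11b+ GMP-P for 77 of the 87. Over all genes, neither the counts for each population nor that of larger SDs are given here. Whether these counts are particular to the respiratory genes was therefore not tested. The ratio of mean TPM, which weights the cells with high values, gave smaller differences: 15 of 87 genes were lower by 1 or more in log2 and 0 higher, against 30.9% and 10.3% of all measured genes, with medians of -0.52 and -0.47. Over the cells above 0 alone, 37 of 87 were lower, against 26.3% of all genes with a value. In the 26 GMP and 21 CD11b+ GMP-P cells within a shared range of genes above 0 per cell, 23 of 88 were lower, against 16.8% of all measured genes. When levels were rescaled by the median of ratios over widely detected genes, 42 of 87 were lower, against 20.5%. The medians were then -0.97 over the 87 and -0.30 over all measured genes. The mean was lower in CD11b+ GMP-P for 74 of the 87, and no such count over all genes is given here.

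**Figure D1:**
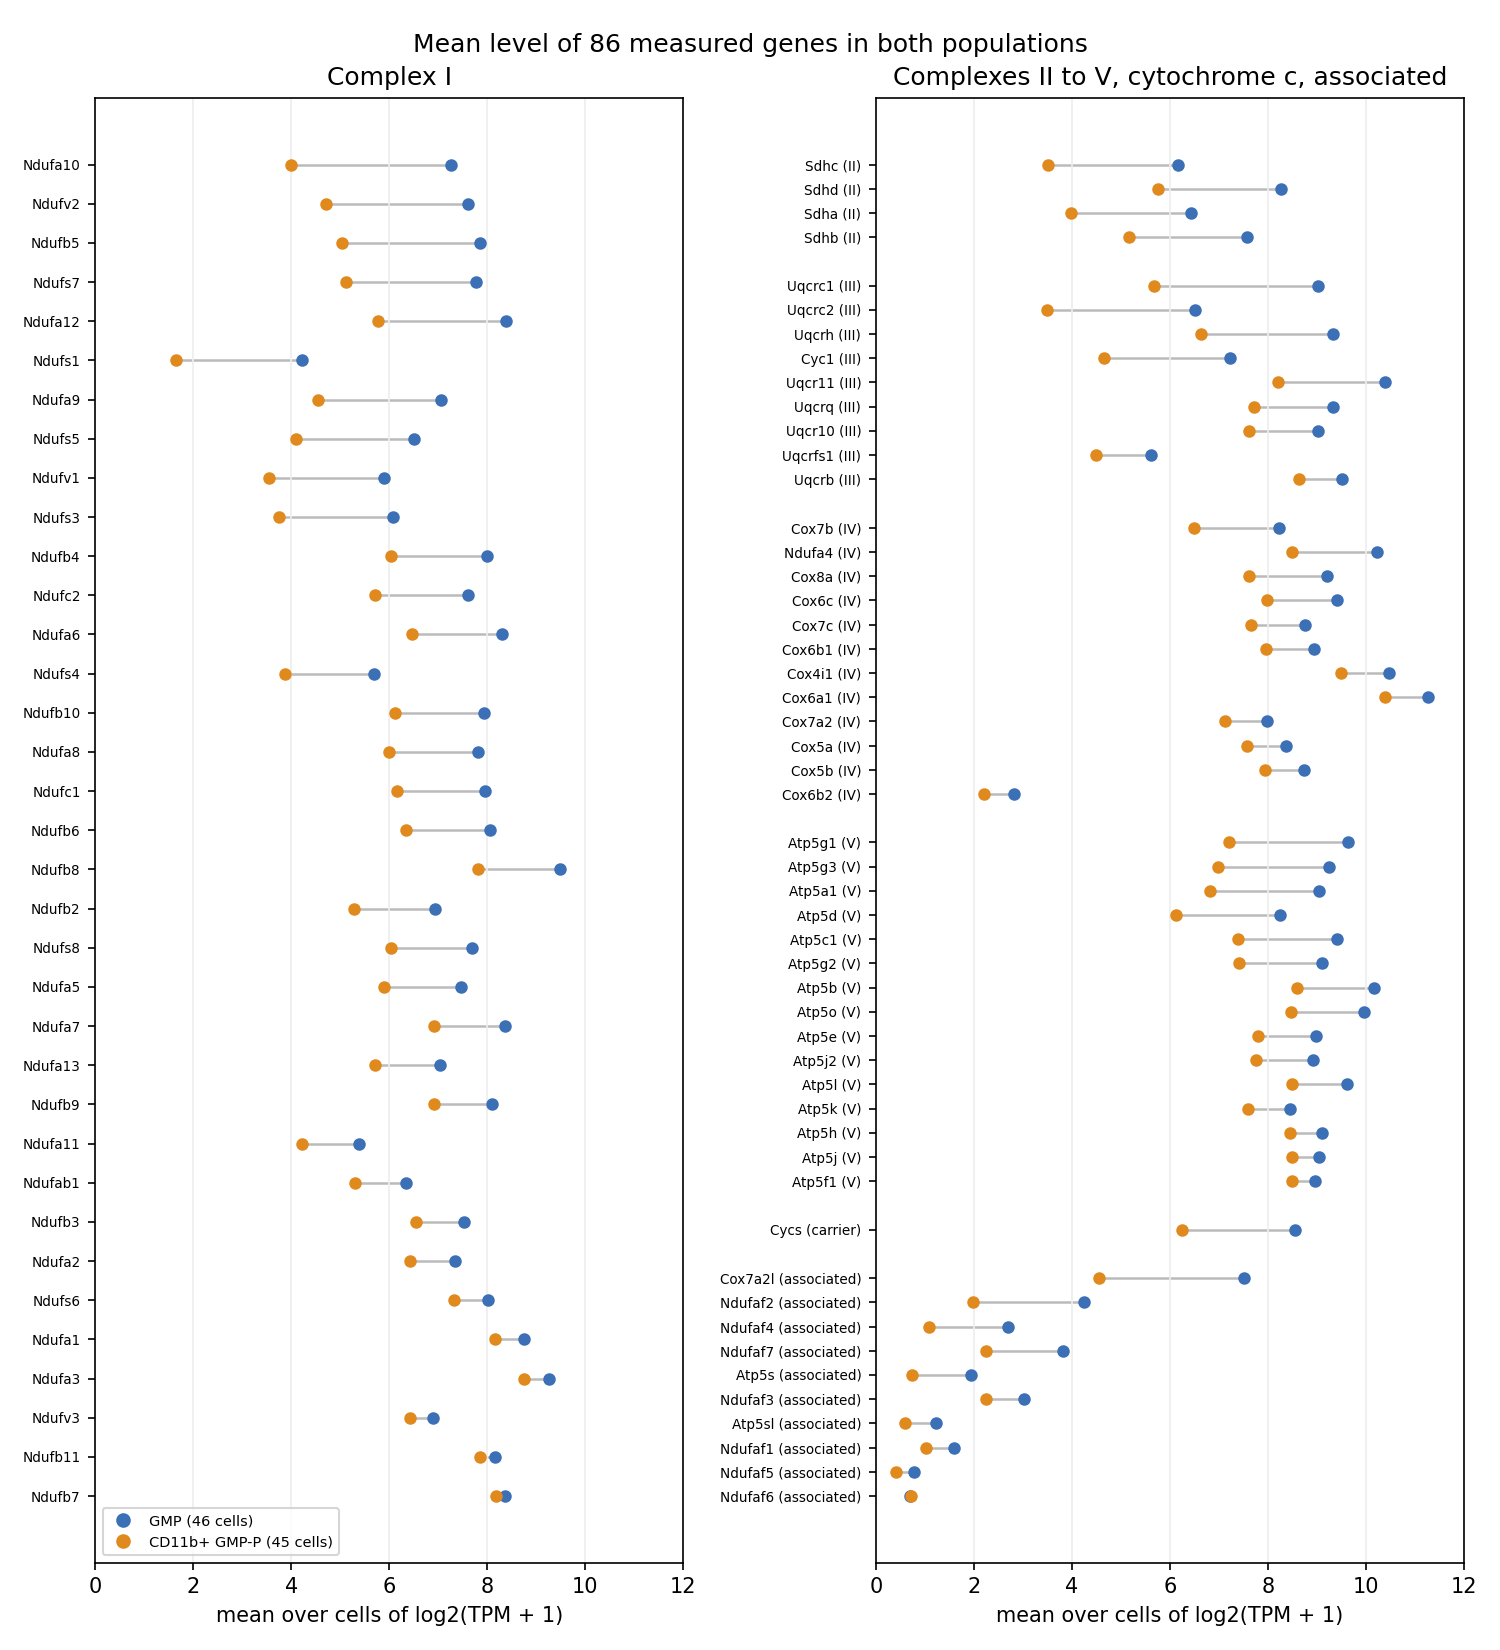
Mean log2(TPM + 1) of 86 of the 87 measured genes (horizontal axis) in GMP (blue, 46 cells) and CD11b+ GMP-P (orange, 45 cells), complex I on the left and the rest on the right, ordered by difference within each complex. Grey bars join the means of a gene. The bars are long throughout complex II and for Uqcrc1 (-3.33) and Uqcrc2 (-3.02), and short for Ndufb7 (-0.18) and Atp5f1 (-0.46).

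Complex I, the NADH dehydrogenase, had all 36 subunits measured. Of these 28 were lower in CD11b+ GMP-P, with a median difference of -1.75. All 36 also passed the 50% detection filter (values above 0 in 50% or more of the cells of a population). Under it 51.8% of all genes were lower, with a median of -1.05. The 7 core subunits, which hold the flavin and the iron-sulfur clusters and carry the electrons, were all lower, with a median of -2.35. Of the 29 accessory subunits, which surround the core, 21 were lower, with a median of -1.66. Ndufv2, an iron-sulfur subunit of the NADH-binding module, ranged from 0 through a median of 8.11 to 9.55 in GMP and from 0 through 5.58 to 9.75 in CD11b+ GMP-P, with a difference of -2.89. The ranges overlapped fully, and 2 GMP cells against 8 CD11b+ GMP-P cells were at 0. Ndufs1, the largest core subunit, was the core gene with the lowest level: its mean was 4.22 ± 3.08 (SD) in GMP and 1.65 ± 2.39 in CD11b+ GMP-P, with a difference of -2.57.

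Ndufa10, an accessory subunit of the membrane arm, differed most within complex I. It ran from 0 through a median of 7.96 to 9.88 in GMP and from 0 through 3.92 to 10.04 in CD11b+ GMP-P, and the difference was -3.28. The highest single value was in CD11b+ GMP-P, so the populations differed in their low cells and not in their maximum. Ndufb5, another membrane-arm subunit, had medians of 8.37 and 6.12 and a difference of -2.83.

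The most abundant complex I subunits, per length, were Ndufa3 (mean level 9.26 ± 0.98 in GMP and 8.74 ± 2.25 in CD11b+ GMP-P), Ndufb8 (9.48 ± 1.29 and 7.80 ± 3.19) and Ndufa1 (8.76 ± 1.44 and 8.15 ± 2.44). All 3 are small accessory membrane subunits, and each was above 0 in 46 of 46 GMP and 43 of 45 CD11b+ GMP-P cells. Ndufb8, which is unstable as a protein when complex I is not assembled, was lower by 1.68, while Ndufa3 and Ndufa1 differed by -0.52 and -0.61. The smallest differences in the complex were those of 2 membrane-arm accessory subunits. Ndufb7 had a median of 9.06 in GMP and 8.58 in CD11b+ GMP-P, with a difference in means of -0.18 and SDs over cells of 2.29 and 2.12. Ndufb11 had medians of 8.66 and 8.82 with a difference in means of -0.31, and was above 0 in 45 of 45 CD11b+ GMP-P cells, the lowest at 0.66.

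All 4 subunits of complex II, the succinate dehydrogenase that also serves the tricarboxylic acid cycle, were lower in CD11b+ GMP-P, within a narrow span from -2.40 to -2.66. Their median of -2.49 was the most negative of the 5 complexes. Under the 50% detection filter 51.8% of all genes were lower, with a median of -1.05. Sdha, the flavoprotein that oxidises succinate, ran from 0 through a median of 7.28 to 10.43 in GMP and from 0 through 2.60 to 10.06 in CD11b+ GMP-P. Sdhb, the iron-sulfur subunit, had medians of 8.37 and 5.88 (range 0 to 10.15 and 0 to 10.98). For the membrane anchors, Sdhc had medians of 6.92 and 2.98 and Sdhd medians of 8.79 and 6.64. Both populations reached down to 0 for each of the 4 genes and up to about the same maximum, so single cells overlapped, but the lower medians held for catalytic and anchor subunits alike. Complex II transcripts were also the scarcest of the complexes, at 0.138% ± 0.065 of the TPM of a GMP cell (SD) and 0.0764% ± 0.0656 of a CD11b+ GMP-P cell.

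In complex III, the ubiquinol-cytochrome c reductase, 8 of 9 subunits were lower and the median was -2.19. Over all genes under the 50% detection filter 51.8% were lower and the median was -1.05. Over all genes with a mean level of at least 5, 67.6% were lower and the median was -1.50. The core proteins, which are large matrix subunits related to the processing peptidases, showed the 2 most negative values. Uqcrc1 ran from 1.86 through a median of 9.47 to 11.07 in GMP and from 0 through 6.76 to 11.14 in CD11b+ GMP-P, and its difference of -3.33 was the most negative of all 87 measured genes. In mean TPM the 2 populations stood at 733 and 353. Uqcrc2 had medians of 7.71 and 2.92, and its difference was -3.02. Uqcrh, the hinge protein near the cytochrome c docking site, had medians of 9.57 and 7.24 and a difference of -2.71.

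The redox subunits of complex III differed from each other. Cyc1, the cytochrome c1 subunit that hands electrons to cytochrome c, was above 0 in 45 GMP and 32 CD11b+ GMP-P cells, with medians of 7.50 and 5.99 and a difference of -2.56. Uqcrfs1, the Rieske iron-sulfur protein, had medians of 5.91 and 5.28 and a difference of -1.12, which turned to 0.09 in the ratio of mean TPM and to 0.12 over cells above 0 alone. Of the small subunits, Uqcr11 was the most abundant, at 10.38 ± 0.62 (SD) in GMP, where its lowest cell was at 8.94, and 8.19 ± 3.34 in CD11b+ GMP-P, where 4 cells were at 0. Uqcrq averaged 9.32 and 7.71, and Uqcrb, the ubiquinone-binding protein, 9.51 and 8.63. Uqcrb was the single complex III subunit whose difference, -0.88, stayed under 1.

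Cytochrome c itself, the soluble carrier between complexes III and IV that also triggers apoptosis when released, followed the more negative complexes. Cycs ran from 0.63 through a median of 8.87 to 9.96 in GMP and from 0 through 7.33 to 10.36 in CD11b+ GMP-P, with a difference of -2.30. In GMP a single cell lay far below the rest, whereas values in CD11b+ GMP-P spread from 0 to past the GMP maximum.

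Complex IV, the cytochrome c oxidase, had the smallest difference by the median, -0.98, with 5 of 12 measured subunits lower. Under the 50% detection filter, which all 12 passed, the median over all genes was -1.05 and 51.8% were lower. Among all genes with a mean level of at least 5, which all but Cox6b2 reached, the median was -1.50 and 67.6% were lower. It held 3 of the 4 highest mean levels among the 94 genes. Cox6a1, a peripheral regulatory subunit, had the highest mean level of all 94 genes and ran from 8.71 through a median of 11.48 to 12.59 in GMP and from 0 through 10.94 to 12.05 in CD11b+ GMP-P, with a difference of -0.88. Cox4i1, the largest nuclear subunit, ran from 6.63 through 10.61 to 11.71 and from 0.93 through 9.94 to 11.39, a difference of -0.98, and was above 0 in all 91 cells. Ndufa4, named for complex I but placed in complex IV by later biochemistry, was less even: its levels were 10.22 ± 0.82 (SD) and 8.49 ± 2.90, and 5 cells dropped to 0 in CD11b+ GMP-P against 0 in GMP.

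Within complex IV the most negative differences were those of 3 subunits: Cox7b at -1.74, Ndufa4 at -1.73 and Cox8a at -1.60, the first and last being small single-helix membrane subunits. Cox5a and Cox5b, the matrix subunits that bind next to the catalytic core, each differed by -0.80. Cox5a was above 0 in every cell, with its lowest CD11b+ GMP-P cell at 0.79. Common and tissue-restricted isoforms were clearly separated in detection. Cox4i1, Cox6a1, Cox6b1, Cox7a2, Cox7b, Cox8a and Ndufa4 were above 0 in at least 45 of 46 GMP cells. Of their restricted partners, known from lung, heart and skeletal muscle, testis or hypoxia, Cox6a2, Cox7b2, Cox8b, Cox8c and Ndufa4l2 were listed at 0 in all 91 cells. Cox4i2 was above 0 in 4 GMP cells and Cox7a1 in 1, both in no CD11b+ GMP-P cell.

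Cox6b2, best known from testis, was the exception. It was above 0 in 24 of 46 GMP cells, with a median of 1.36 and a maximum of 8.57, and in 19 of 45 CD11b+ GMP-P cells, with a median of 0 and a maximum of 8.15. Its mean TPM of 47.4 and 33.7 compared with 659 and 548 for its common partner Cox6b1. The libraries do not mark strand, so reads of a gene overlapping Cox6b2 could not be separated from it.

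Complex V, the ATP synthase, had 11 of 15 subunits lower, with a median of -1.49, and its structural parts differed. Among all genes with a mean level of at least 5 the share lower was 67.6%, with a median of -1.50. Under the 50% detection filter 51.8% of all genes were lower. The 5 subunits of the catalytic F1 head and central stalk were all lower, with a median of -2.01. Atp5b, the catalytic beta subunit, ran from 7.55 through a median of 10.33 to 11.54 in GMP and from 0.84 through 9.14 to 11.36 in CD11b+ GMP-P, with a difference of -1.56, and was above 0 in all 91 cells. Atp5a1, the alpha subunit, ran from 0.43 through 9.66 to 10.87 and from 0 through 8.29 to 10.45, a difference of -2.22. The rotor ring of c subunits is encoded by 3 genes for the same mature peptide, and all 3 were lower: Atp5g1 by 2.42 (means of 9.63 and 7.21), Atp5g3 by 2.27 (9.25 and 6.98) and Atp5g2 by 1.69 (9.11 and 7.41). Their order in GMP did not hold in CD11b+ GMP-P, but in both populations the 3 means lay within the spread between cells.

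The peripheral stalk, which holds the head still against the rotor, differed least. Atp5f1 (subunit b) had medians of 9.21 and 8.65 and a difference of -0.46. Atp5j (coupling factor 6) had medians of 9.20 and 8.94 and a difference of -0.54. Both were above 0 in all 91 cells, with their lowest CD11b+ GMP-P cells at 0.56 and 0.73. Atp5h (subunit d) differed by -0.65. Atp5o, the oligomycin sensitivity protein on top of the head, was the one stalk subunit past 1, at -1.49, with a mean of 9.95 ± 0.79 (SD) in GMP and 8.46 ± 3.02 in CD11b+ GMP-P. Atp5l (subunit g), a membrane subunit near the dimer interface, averaged 9.61 and 8.49. The median over the 4 stalk subunits was -0.60, against -2.27 over the c subunits and -2.01 over F1. All of these belong to 1 complex, whose nuclear transcripts therefore did not share 1 difference.

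Of the 10 associated genes, 5 were lower, against 29.9% of all measured genes. Cox7a2l, an assembly factor for the supercomplex of complexes III and IV, had medians of 8.08 and 5.21 and a difference of -2.94. The 7 complex I assembly factors Ndufaf1 to Ndufaf7 were low throughout, with mean levels in GMP from 0.70 (Ndufaf6) to 4.25 (Ndufaf2), and 3 were lower by 1 or more: Ndufaf2 at -2.26, Ndufaf4 at -1.61 and Ndufaf7 at -1.58. Atp5s and Atp5sl carry ATP synthase names but are now called Dmac2l and Dmac2 (the latter a complex I assembly factor). They were above 0 in 18 and 14 GMP cells and in 9 and 5 CD11b+ GMP-P cells, with differences of -1.22 and -0.64.

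**Figure D2:**
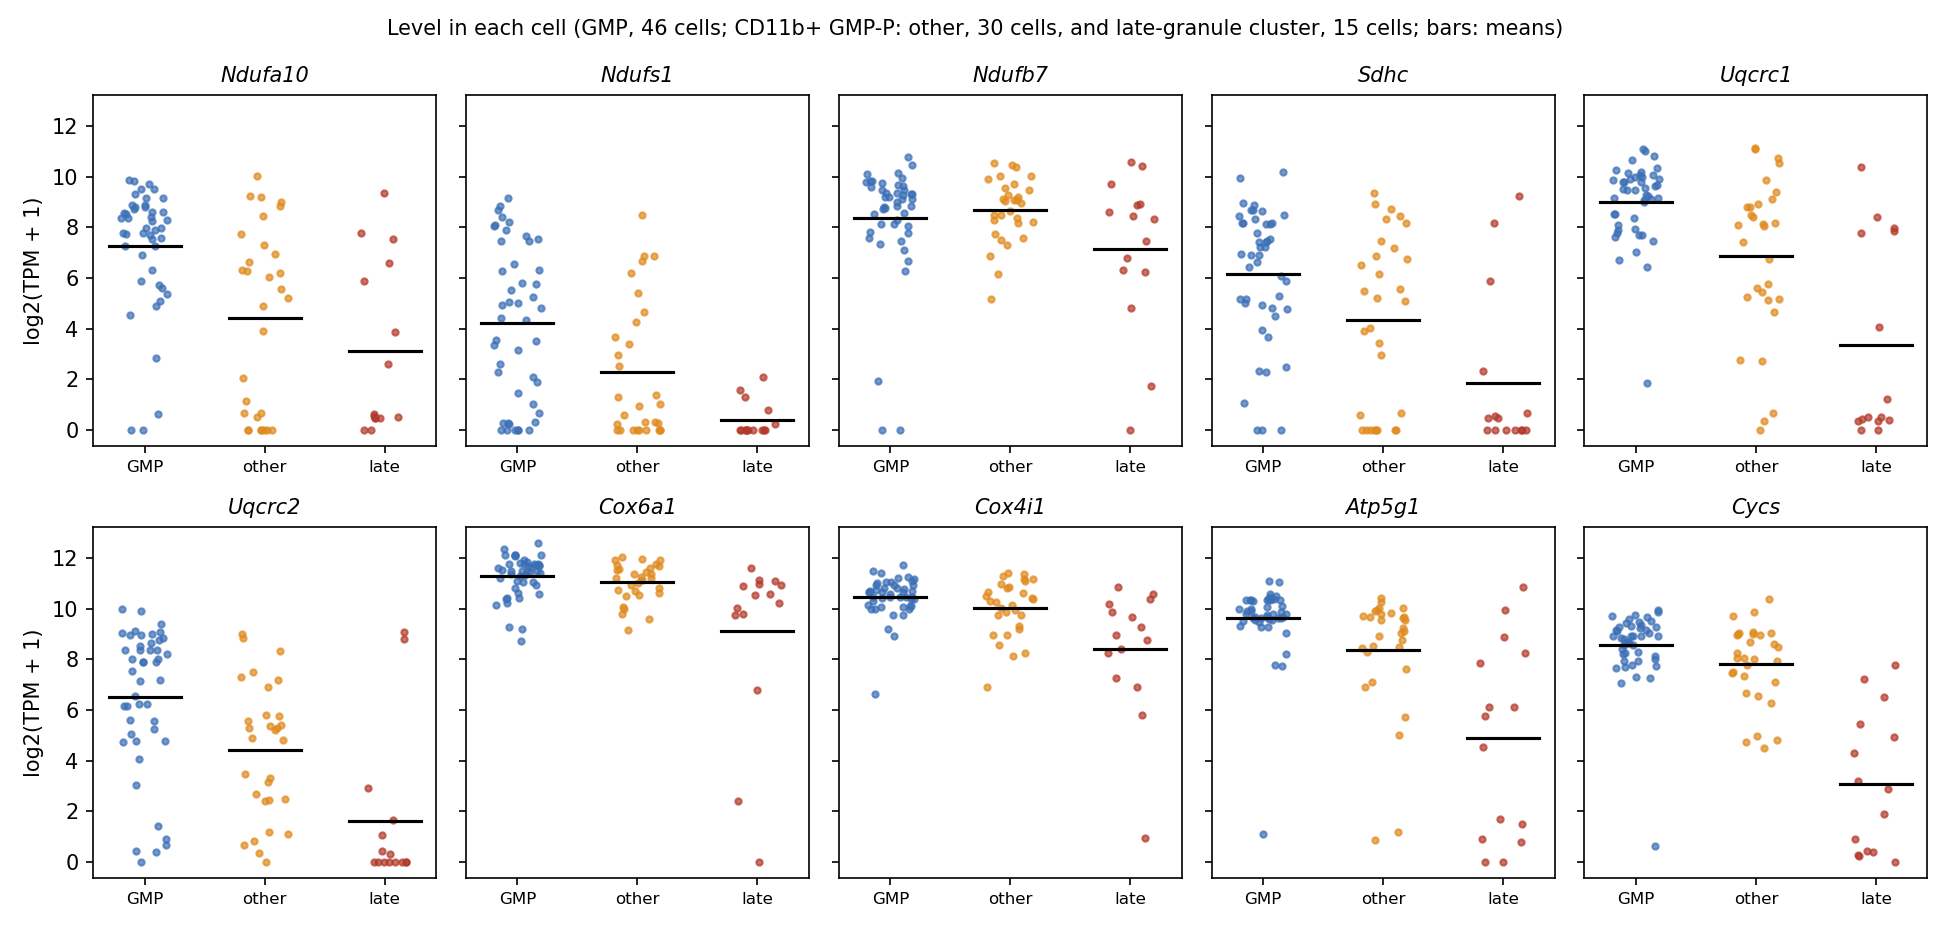
Level in log2(TPM + 1) of 10 genes in every cell, for 46 GMP cells (blue), the 15 CD11b+ GMP-P cells of a cluster led by late granule genes ("late", red) and the other 30 CD11b+ GMP-P cells ("other", orange). Bars are means. Uqcrc1, Sdhc and Ndufa10 had more low cells in both CD11b+ GMP-P sets, while Cox6a1, Cox4i1 and Ndufb7 lay at similar levels in GMP and the other 30 cells.

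The summed share of all 94 genes in the TPM of a cell was 4.35% ± 0.58 (SD) in GMP, from 2.89% through a median of 4.49% to 5.37%. In CD11b+ GMP-P it was 3.005% ± 1.22, from 0.863% through 2.88% to 5.24%, and 23 of 45 cells lay below the lowest GMP cell. By complex, the mean share was 1.29% and 0.977% for complex I, 0.604% and 0.372% for complex III, 1.03% and 0.729% for complex IV, and 1.18% and 0.792% for complex V. Complex III had the most CD11b+ GMP-P cells below every GMP cell, 26 of 45, and complex II the fewest, 5 of 45, as its share in GMP reached down to 0.00528%. Late granule genes, the transcripts of secondary and tertiary neutrophil granules and of S100a8 and S100a9, took 0.65% of the TPM in GMP and 28.0% in CD11b+ GMP-P on average. With the primary and late granule genes left out of the total, GMP had a respiratory share of 4.68% ± 0.61 and CD11b+ GMP-P one of 4.21% ± 0.98. Without the 50 highest genes of each cell it was 5.98% and 5.78%, a difference of -0.20 percentage points, below the spread between cells.

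**Figure D3:**
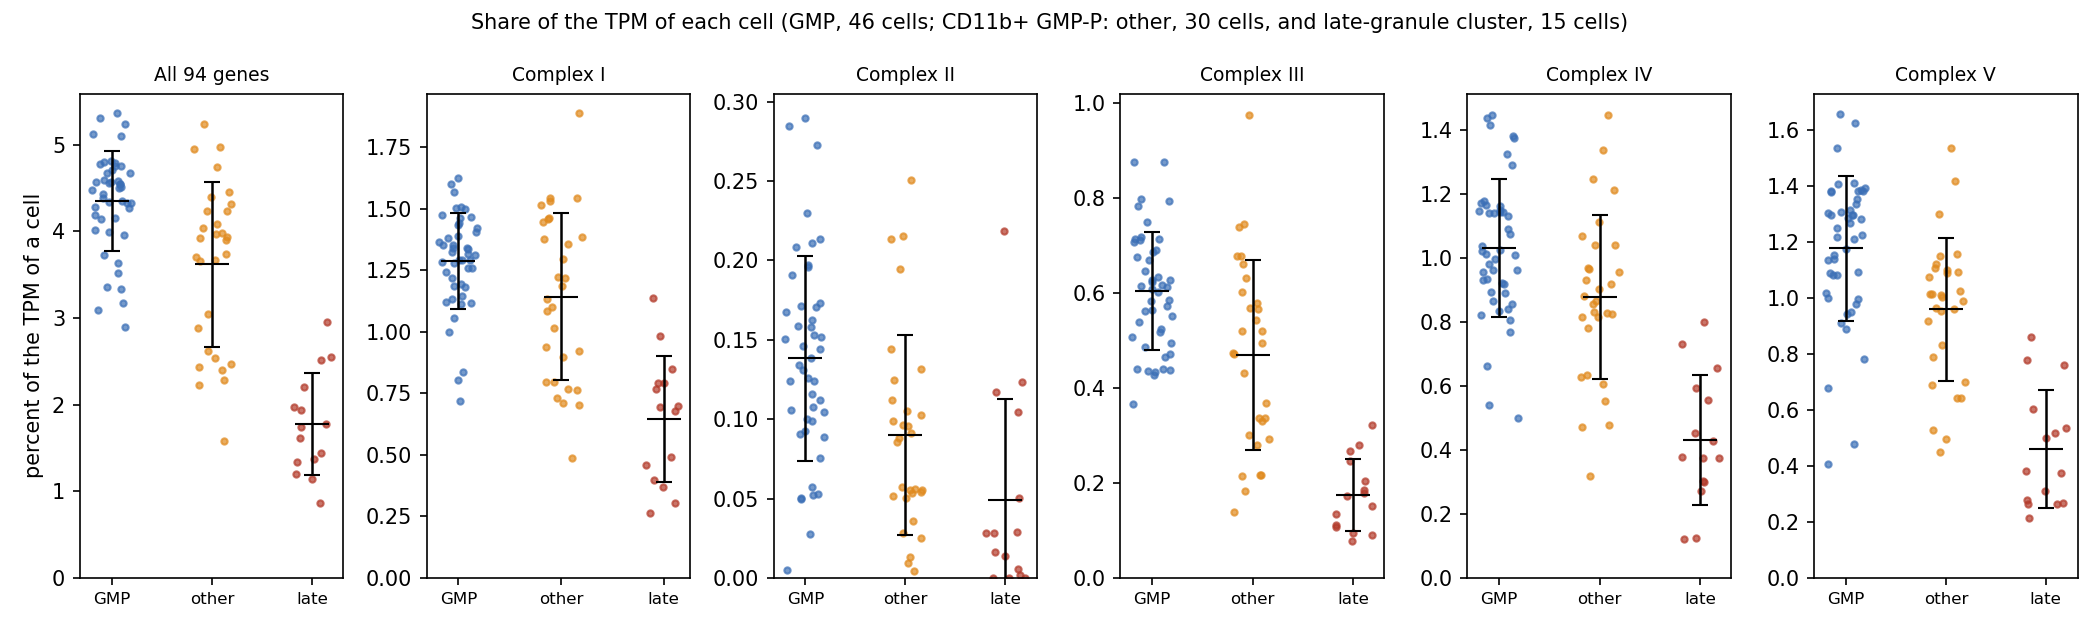
Percent of the TPM of a cell held by all 94 genes and by the subunits of each complex (vertical axes, separate scales from 0), for 46 GMP cells, the other 30 CD11b+ GMP-P cells and the 15 cells of the late-granule cluster. Points are cells, and black marks are means with the SD over cells. All 15 cells of the late-granule cluster lay below every GMP cell for complex III, whose mean there was 0.175%.

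CD11b+ GMP-P cells were not uniform. Clustered on variable genes that excluded the respiratory and other mitochondrial genes, they fell into a set of 15 cells led by Ltf, Ngp and Camp (lactoferrin, neutrophilic granule protein and cathelicidin of late granules) and a set of 30 led by Elane, Nkg7 and Gstm1. Late granule genes held 50.4% ± 6.6 (SD) of the TPM in the set of 15, called the late-granule cluster, and 16.8% ± 15.3 in the other 30. The respiratory share was 1.77% ± 0.59 in the late-granule cluster and 3.62% ± 0.95 in the other 30. Outside the granule genes the shares were closer, 3.57% ± 1.04 and 4.53% ± 0.78. Genes above 0 per cell numbered 3105 ± 492 in the cluster and 4616 ± 688 in the other 30. With 1000 variable genes in place of 500 the sets held 27 and 18 cells, so the border between them was not sharp. In GMP, 3 cells led by Cpa3, Ms4a2 and Gata2 stood apart from the other 43. Their respiratory share was 3.11% ± 0.23 against 4.44% ± 0.49, and their mean level over the genes was 4.69 against 7.66, with 3275 against 5435 genes above 0. Without these 3 cells 69 of 87 genes were lower between the populations, against 32.6% of all measured genes.

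Much of the difference between the populations lay in the late-granule cluster. Between the cluster and the other CD11b+ GMP-P cells, 81 of 87 genes were lower by 1 or more in the cluster and 0 were higher. Among 9690 measured genes 37.2% were lower and 1.98% higher, and among 4257 genes with values above 0 in 50% or more of the cells of a set 64% were lower and 3.1% higher. The median difference was -2.799, against -0.66 over all genes, and -2.95 against -1.44 under the 50% detection filter. The most negative were Ndufa12, an accessory subunit of complex I, at -5.94, with 6 of 15 cells above 0 against 29 of 30, and Uqcrh and Ndufab1, the mitochondrial acyl carrier protein, both at -4.87. Atp5b and Cox4i1 stayed above 0 in all 15 cells, with means of 6.91 and 8.40 against 9.44 and 10.03. Their lowest cells in the cluster were near the floor, at 0.84 and 0.93. Complex III had a median of -3.60, complex I -2.99, complex V -2.81, complex II -2.61 and complex IV -2.40.

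The other 30 CD11b+ GMP-P cells lay closer to GMP, and the complexes still differed from each other. Of 87 genes 24 were lower than in GMP and 0 higher. Among all 10196 measured genes 17.8% were lower and 2.97% higher, and among 5257 genes under the 50% detection filter 30.3% and 4.83%. The median was -0.57 over the 87 genes and -0.29 over all. Under the 50% detection filter 23 of 82 respiratory genes were lower, with a median of -0.58 against -0.54 over all 5257. As a whole the set thus lay near other well detected genes. All 4 complex II genes remained lower, from -1.31 (Sdhd) to -1.83 (Sdhc), as did 5 of 7 core subunits of complex I, with a median of -1.36 over the 7. Both complex III core proteins were lower, Uqcrc1 by 2.16 and Uqcrc2 by 2.09. Ndufa10 had the most negative difference of all, -2.84. By contrast 4 of 29 complex I accessory subunits, 0 of 12 complex IV subunits and 3 of 15 complex V subunits were lower. Those 3 were the c subunit genes Atp5g3 (-1.52) and Atp5g1 (-1.25) and the gamma subunit of the central stalk, Atp5c1 (-1.02). Differences of complex IV subunits ran from -0.67 (Cox6c) to 0.16 (Cox5a), and the largest positive value of the 87 was Ndufab1 at 0.59, so these values lay within the spread between cells. The differences of the 4 complex II genes and of Uqcrc2 lay within it too, with SDs for Sdhc of 2.66 in GMP and 3.41 in the other 30. Those of Ndufa10 and Uqcrc1 passed the SD in GMP (2.43 and 1.57) but not that in the other 30 (3.60 and 3.15).

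**Figure D4:**
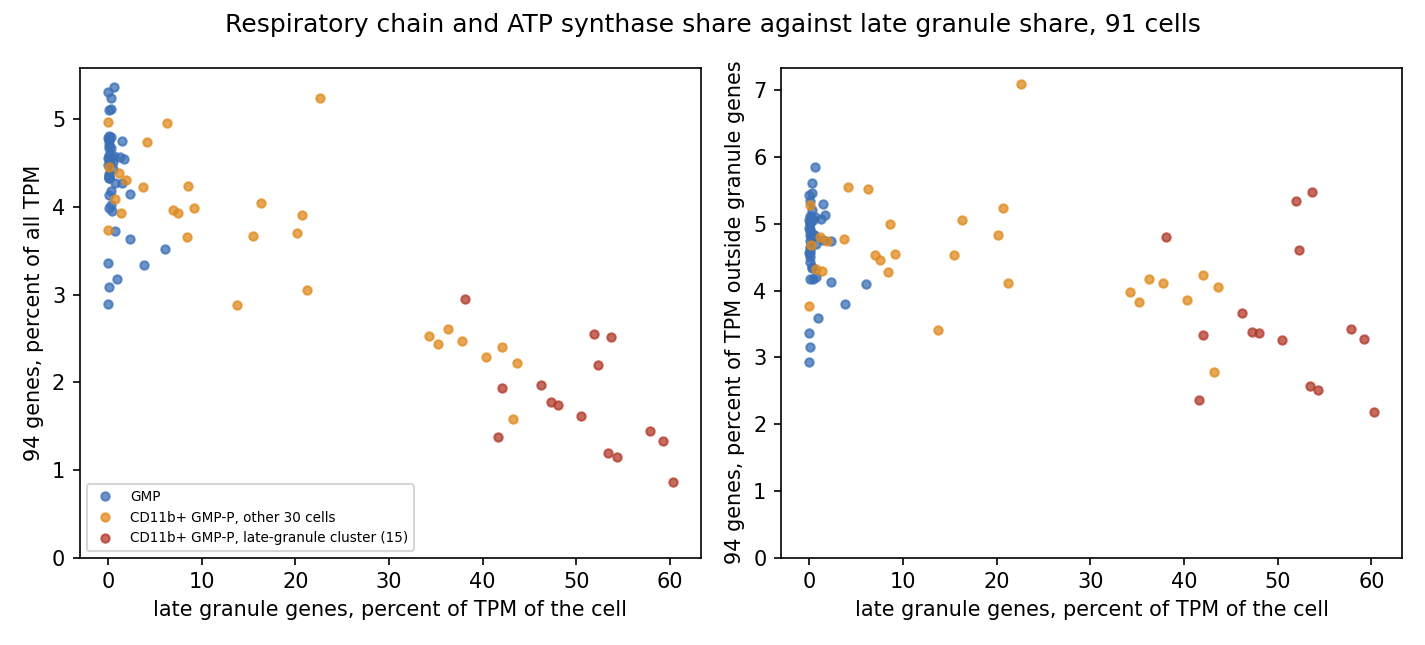
Share of the 94 genes in the TPM of each of 91 cells (vertical axis: percent of all TPM on the left, percent of the TPM outside the granule genes on the right) against the percent of TPM held by late granule genes. On the left, CD11b+ GMP-P cells lay along a downward band (Pearson r -0.91 over 45 cells); on the right the band was looser (r -0.53).

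Across the 45 CD11b+ GMP-P cells the respiratory share was lower where the late granule share was higher (Pearson r -0.91, Spearman rho -0.88). Both are parts of the same total in each cell, so a large granule share leaves less for other genes. Outside the granule genes the relation was weaker (r -0.53, rho -0.53). The respiratory share was also higher in cells with more genes above 0 (r 0.76, rho 0.76, 45 cells; r 0.42, rho 0.27, 46 GMP cells). The part of detection and of the granule share in the differences was not tested. Shares of complexes I, III, IV and V were related to each other across CD11b+ GMP-P cells, with rho from 0.72 to 0.82, whereas complex II was related less to them, with rho from 0.26 to 0.43. Single genes were loosely related: among 78 of the genes the median pairwise r was 0.198 in GMP, 0.293 in CD11b+ GMP-P and 0.123 within the other 30 cells.

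Other mitochondrial genes gave a frame for these values, listed by textbook role. Over all measured genes 29.9% were lower, and 51.8% under the 50% detection filter. Of 77 mitochondrial ribosomal protein genes, which serve the translation of the mitochondrially encoded subunits, 69 were lower, with a median of -1.79, led by Mrps18b at -3.88 and Mrpl12 at -3.86. For the tricarboxylic acid cycle and pyruvate dehydrogenase 16 of 24 measured genes were lower, with a median of -1.9995, led by Idh2, the mitochondrial NADP-linked isocitrate dehydrogenase, at -4.02, and Idh3g at -2.91. Import and chaperone genes were lower in 25 of 28 cases, led by the chaperonin Hspd1 at -4.21 and Trap1 at -4.18. Among outer membrane and cristae genes 12 of 14 were lower, led by the cristae organiser Immt at -3.81 and prohibitin Phb at -3.63. Slc25a4, an ADP/ATP carrier, had the most negative value of any gene on the mitochondrial lists, -4.91, and Slc25a39 differed by -2.67. Of 32 measured Slc25 carriers 9 were lower, with a median of -0.62. Under the 50% detection filter 7 of 11 carriers were lower, with a median of -1.60, against -1.05 over all genes.

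Genes that build or regulate the complexes are assembly factors and regulators of mitochondrial biogenesis. Of 37 assembly factors 16 were lower, with a median of -0.84, led by Uqcc2, needed for complex III, at -2.82, and Bcs1l, which inserts the Rieske protein, at -2.22. Of 19 measured regulators of mitochondrial biogenesis 5 were lower, with a median of -0.61; the most negative were Myc at -3.54 and the deacetylase Sirt3 at -3.16. With values above 0 in 50% or more of the cells of a population, 15 of 22 assembly factors and 5 of 9 regulators were lower, with medians of -1.22 and -1.42, against 51.8% and -1.05 over all such genes. The 3 further ATP synthase proteins were all lower, among them the inhibitor Atpif1, at 9.97 ± 0.62 (SD) in GMP and 7.41 ± 2.95 in CD11b+ GMP-P.

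Outside mitochondria, genes of the ribosome and the proteasome had medians near the -1.61 of the respiratory genes. Of 81 cytoplasmic ribosomal protein genes 70 were lower, with a median of -1.61, led by Rpl30 at -3.19 and Rps27 at -2.97, and of 44 proteasome genes 39 were lower, with a median of -1.86, led by Psmb10 at -3.84 and Psmb8 at -3.64. Glycolysis genes were lower in 11 of 20 cases, with a median of -1.13, led by Pfkp at -3.18 and Tpi1 at -3.12. Of 24 S phase genes 10 were lower, led by Mcm6 at -2.797 and Mcm4 at -2.76. Of 25 G2 and M phase genes 1 was lower and 4 were higher; Mki67 differed by 1.76 and Ccnb1 by -1.63. All 10 primary granule genes were lower, led by Ctsg at -5.11 and Srgn at -5.06, and 11 of 12 late granule genes were higher, led by S100a9 at 8.42 and Chil3 at 8.11. Of all 10030 measured genes 29.9% were lower and 2.45% higher. Under the 50% detection filter 51.8% of all genes were lower. The counts under that filter were 70 of 80 cytoplasmic ribosomal, 39 of 43 proteasome, 11 of 16 glycolysis and 10 of 23 S phase genes.

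In the other 30 CD11b+ GMP-P cells the lists drew apart. Of all measured genes 17.8% were lower there, and 30.3% under the 50% detection filter. Mitochondrial ribosomal protein genes were lower than in GMP in 43 of 77 cases and tricarboxylic acid cycle and pyruvate dehydrogenase genes in 13 of 24, against 24 of 87 respiratory genes and 5 of 81 cytoplasmic ribosomal protein genes. Their medians were -1.15, -1.17, -0.57 and -0.54. Complex II, with a median of -1.56, lay beyond all of these lists, and complexes IV (-0.41) and V (-0.31) compare with medians of -0.29 over all measured genes and -0.54 over the 5257 well detected ones.

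**Figure D5:**
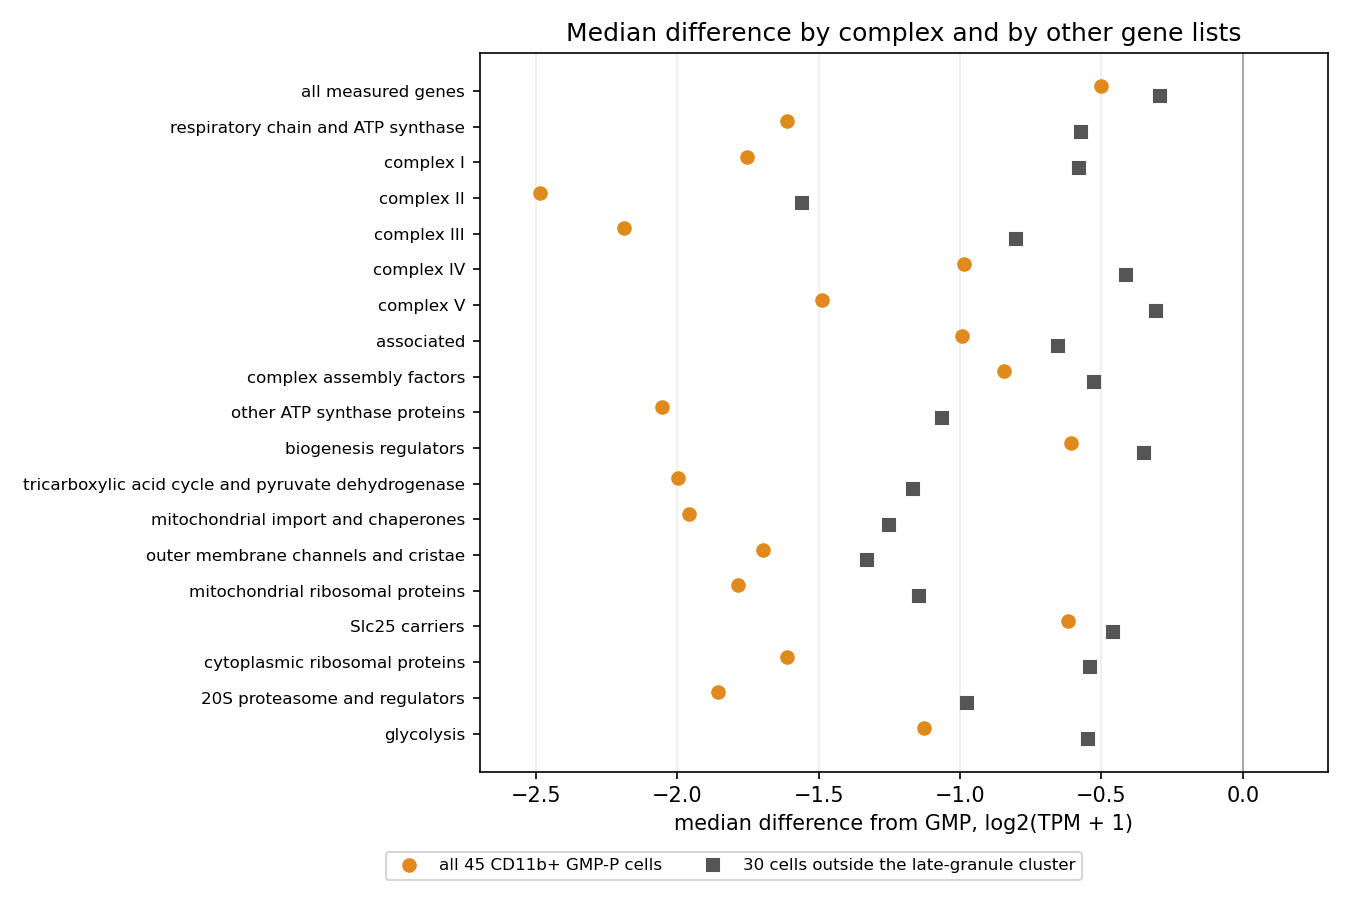
Median difference from GMP in log2(TPM + 1) for all measured genes, the respiratory genes, each complex and lists of mitochondrial, ribosomal, proteasome and glycolysis genes (rows; cell cycle and granule lists are not plotted), over all 45 CD11b+ GMP-P cells (circles) and over the 30 cells outside the late-granule cluster (squares). Complex II is the leftmost of the plotted rows in both sets of cells, at -2.49 and -1.56.

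The genes whose levels followed the respiratory genes most closely from cell to cell were primary granule genes. The measure was the mean Pearson r with 78 respiratory genes, averaged over the 46 GMP and 45 CD11b+ GMP-P cells, among 3102 candidate genes. Elane (0.438), Mpo (0.429), Prtn3 (0.422) and Ctsg (0.421), which encode neutrophil elastase, myeloperoxidase, proteinase 3 and cathepsin G, came first. Gstm1 (0.418), Cct5 (0.402), Emb (0.397), Ms4a3 (0.391), Eif3e (0.386) and Rps20 (0.386) followed. The points share the depth and the TPM total of each cell, and in GMP the 3 cells that stood apart were low in both (Elane 5.33 against 14.35 in the other 43). In CD11b+ GMP-P the late-granule cluster was likewise low in both: Elane averaged 4.66 against 13.72 in the other 30, and the mean level over the respiratory genes was 4.02 against 6.79.

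Transcript length ran with the difference in the opposite sense to that in other genes. Among 82 respiratory genes with values above 0 in 50% or more of the cells of a population, longer ones had more negative differences (Spearman rho -0.34 across genes, which are not independent replicates), whereas across 4798 genes of the same detection with a length rho was 0.20. The median length was 1186.5 bases for complex II, 977 for the complex I core, 629 for complex I accessory subunits, 588.5 for complex IV and 533 for complex III. More abundant respiratory genes had smaller differences (rho 0.42, 82 genes), again unlike all 5133 genes (rho -0.34). Over all 87 measured respiratory genes rho was 0.23 and Pearson r 0.03. Whether length or level accounts for the order of the complexes was not tested.

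Promoter sequence was read for 77 of the 94 genes that had an entry in the RefSeq table for GRCm38.p6, from 250 bases before to 50 after the gene start. Motifs of 4 factors long linked to nuclear genes for mitochondrial proteins were searched on both strands. The palindromic site of 10 bases of nuclear respiratory factor NRF1 (in capitals in the windows that follow) was in 7 of the 77 (9.09%), against 1.07% of all 27025 promoters and 2.95% of those of commonly detected genes. AAGATGGC, bound by YY1, was in 11 (14.3%), against 3.19% and 6.67%. CCGGAAGT, of ETS factors such as GABP, was in 5 (6.49%), against 4.31% and 11.7%, and CCCGCCCC, of the SP family, in 20 (25.97%), against 18.4% and 33.97%. A match is a match of letters alone, and 40 of the 77 held none of the 4. The NRF1 matches are given in windows of 30 bases, with the motif in capitals, since this motif had the largest share relative to all promoters. They belong to genes of complexes I, III, IV and V and to 2 assembly factors, and to genes with the most negative as well as with small differences, from Uqcrc1 (-3.33) through Cox6a1 (-0.88) to Ndufaf5 (-0.36).
Uqcrc1: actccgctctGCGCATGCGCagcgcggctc
Atp5g2: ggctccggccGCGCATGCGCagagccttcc
Ndufaf4: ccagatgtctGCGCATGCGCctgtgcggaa
Ndufa11: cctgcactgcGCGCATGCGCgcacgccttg
Cox6a1: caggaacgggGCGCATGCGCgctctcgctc
Atp5k: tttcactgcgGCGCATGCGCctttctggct
Ndufaf5: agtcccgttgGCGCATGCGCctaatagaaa

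In GRCm38.p6 the Uqcrc1 window lies at chr9:108936668-108936697 on the plus strand, where the motif starts at base 31 of the transcript, and the Ndufaf5 window at chr2:140170652-140170681 on the plus strand, where it starts at base 17. The others start upstream of the gene: Atp5g2 at chr15:102671070-102671099 (minus strand), Ndufaf4 at chr4:24897960-24897989 (plus), Ndufa11 at chr17:56717692-56717721 (plus), Cox6a1 at chr5:115349101-115349130 (minus) and Atp5k at chr5:108434430-108434459 (minus). The YY1 matches mostly lay downstream of the gene start. They are shown for the 3 genes with the most negative differences among its holders, Ndufs7 (-2.65), Ndufa9 (-2.50) and Ndufs4 (-1.82), and for Ndufa3 (-0.52), one of the genes with the smallest.
Ndufs7: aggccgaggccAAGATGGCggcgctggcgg
Ndufa9: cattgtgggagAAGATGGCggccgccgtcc
Ndufs4: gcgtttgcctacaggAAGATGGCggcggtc
Ndufa3: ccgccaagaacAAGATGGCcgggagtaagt

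These windows lie at chr10:80249462-80249491 (plus strand), chr6:126849097-126849126 (minus), chr13:114388045-114388074 (minus) and chr7:3617384-3617413 (plus), with the motif starting at bases 25, 30, 36 and 23 of the transcript. The same letters thus stood in genes with large and with small differences.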

How the data were processed

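The authors deposited 1 table of log2 values for 23956 gene symbols in 91 single cells. Returned to the linear scale after a pseudocount of 1, each cell summed to between 999999 and 1000076, so the log2 values are log2(TPM + 1). RSEM and the build mm9 are named in the submitters' processing notes; aligner and annotation were not given in the sources used here. SMARTer and Nextera XT libraries do not mark strand and carry no molecular identifiers, reads of near-identical copies are split by estimate, and read depth per cell is unknown. Cells are not replicates, so means, SDs over cells and differences are given without tests.

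A gene counted as measured above 0 in 10% of the cells of either population. Clusters used 500 variable genes, 10 principal components and Ward linkage, with 2 to 5 clusters by silhouette (scikit-learn 1.9.0). Python 3.11.15, numpy 2.4.6, pandas 2.3.3 and scipy 1.17.1 were used; the scripts were tested on simulated data. Doublets were not called, and no 2 cells held the same values (highest Pearson r between cells 0.736). Lengths and promoters come from GRCm38 and were matched by symbol; files of build mm9 were not used here.

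The genes and lists were chosen with earlier results of these data known; roles by complex were assigned after the symbols were read. Named with values were, per complex, the 3 highest, the 3 most negative and the 2 least negative genes, plus all Sdh genes, Cyc1, Cycs, the tissue-restricted isoforms with their partners, the c subunit genes, non-subunits, the 2 largest differences of each list and the 10 most alike genes; others were chosen after their values were seen. A further gene of the set is counted in the totals but is not named or plotted here. Alternatives varied the pseudocount, scaling, filter, cells and clustering.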

Additional observations from a re-analysis of the deposited data

How the results depend on the processing

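No paired analysis was possible because the labels name no animal, and no result comes from a test. The count of genes lower by 1 or more, 62 of 87, became 15 by the ratio of mean TPM, 23 in cells of a shared range of genes above 0 (26 GMP and 21 CD11b+ GMP-P cells, 3947 to 5645 genes), 37 over cells above 0 alone and 24 without the late-granule cluster, an alternative chosen after seeing the data. In the shared range the complex III median was -0.51 and 16.8% of all measured genes were lower. The difference in summed share was -0.20 percentage points without the 50 highest genes of each cell, against -1.35. Among genes with a difference of 1 or more, signs turned for Uqcrfs1, to 0.0915 by mean TPM, 0.0739 in the shared range, 0.117 over cells above 0 and 0.0749 without the late-granule cluster, and in the shared range for Atp5g2 (0.34) and Cox7c (0.17). Among named genes with a difference under 1, signs turned in 42 values of 16 genes, such as Ndufb7, Ndufb11, Ndufa1, Cox5a, Cox5b, Cox6b2 and Atp5f1 without the late-granule cluster. In all, 48 of 624 values of the named genes turned, 13 in the shared range, 9 without the late-granule cluster and 9 under median-of-ratios scaling. Of the main results 101 of 107 values moved by less than the spread between cells, or for counts by less than 1.5 times. The spread between cells is wide for a median over genes, so this count does not show that the medians held. In the shared range the complex V median went from -1.49 to -0.30. By the ratio of mean TPM the complex I median went from -1.75 to -0.37. Median-of-ratios scaling moved the median over all measured genes from -0.50 to -0.30 and that of the respiratory genes from -1.61 to -0.97, with 42 of 87 lower. The settings reuse the same cells and include the main one, so they are not independent checks. Without a filter and under the 50% filter complex II stayed at its main value of -2.49. Complex II had the most negative median in 15 of 15 settings and complex IV the least negative in 12. The exceptions were complex I by mean TPM and over cells above 0, and complex V without the late-granule cluster. The cause of these changes was not tested. Read depth is unknown, so a gene at 0 in a cell may be undetected.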
